A study of Mus musculus with 4 samples.

Results

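The genes described here encode the receptor subunits through which helper T cells sense interleukin-18 (Il18r1, Il18rap), interleukin-12 (Il12rb1, Il12rb2) and interferon gamma (Ifngr1, Ifngr2), together with Stat4, the transcription factor that IL-12 activates. They are 7 of the 23997 genes of the table and were picked by symbol, with the difference between the genotypes in these same libraries already known, so their levels and differences are a description and carry no test. RNA was sequenced from cells labelled as follicular helper T cells (Tfh), a CD4 T cell type specialised in B cell help, taken from spleen and lymph nodes. Of the 4 libraries, 2 came from Apoe-/- mice, which lack apolipoprotein E and are prone to high plasma cholesterol and atherosclerosis, and 2 from wild-type (WT) mice. All mice were of the C57BL/6 strain and 13 weeks old, and no treatment is named for either genotype. How the cells were sorted, whether a library stands for 1 animal or a pool, and whether the replicates are separate animals is not given in the sources used here, so all errors and p-values cover just library-to-library spread, possibly technical.

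IL-18 binds Il18r1 and then recruits Il18rap, and the pair signals through the adaptor MyD88 and the IRAK kinases to NF-kB. IL-12 binds Il12rb1, a chain shared with the IL-23 receptor, and Il12rb2, which is specific for IL-12; the kinases Tyk2 and Jak2 then activate Stat4. In T cells IL-12 and IL-18 act together to raise interferon gamma, the signature cytokine of T helper 1 (Th1) cells. Interferon gamma is itself sensed by Ifngr1, the ligand-binding chain, and Ifngr2, the signaling chain, which act through the kinases Jak1 and Jak2. Tfh cells can also make interferon gamma.

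Levels are FPKM, fragment counts per kilobase of gene model and per fragments mapped in that library; they are scaled for gene length and so can be compared between genes. The libraries had FPKM totals of 533866 and 551289 in Apoe-/- cells and 522371 and 527056 in WT cells. Read depth is unknown. Among genes low in both libraries of a pair, those of equal replicate number shared a common ratio of their values. The most common ratio held 16.3% and 12.4% of low genes in the 2 same-numbered pairs and 2.74% to 3.73% in the other 4 pairs. Differences within each replicate number are therefore given beside the pooled ones. Apoe, the targeted gene, was at 5.09 and 5.21 FPKM in the Apoe-/- libraries, against 145 and 128 FPKM in the WT libraries. The Tfh genes Cxcr5, Bcl6, Pdcd1 and Icos and the T cell genes Cd4 and Cd3e were at 94.1 FPKM or above in all 4 libraries.

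Il18r1 and Il18rap are neighbours on mouse chromosome 1, on the same strand, and both were higher in Apoe-/- cells. The sequences ahead of their starts are shown for that reason. That of Il12rb2, a chain of the IL-12 receptor, is shown beside them. Its groups overlapped at a mean of 1.08 FPKM, which does not show its level to be equal in both genotypes. All these sequences come from RefSeq promoter windows on GRCm38.p6 (the assembly also called mm10), which cover 6 of the 7 genes (not Il12rb1). Only the stretch free of annotated exons within the 250 bases before a start is printed, 5′ to 3′ on the gene's strand. Capitals mark the palindromic STAT motif TTCNNNGAA.
Il18r1, first start, chr1:40465419-40465551, plus strand: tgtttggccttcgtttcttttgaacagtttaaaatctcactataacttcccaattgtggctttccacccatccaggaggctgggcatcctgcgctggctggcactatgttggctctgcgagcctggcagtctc
Il18r1, last start, chr1:40465811-40465969, plus strand: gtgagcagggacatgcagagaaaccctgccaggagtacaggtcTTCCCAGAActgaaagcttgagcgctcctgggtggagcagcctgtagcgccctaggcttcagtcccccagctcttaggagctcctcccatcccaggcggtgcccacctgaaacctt
Il18rap, chr1:40515112-40515361, plus strand: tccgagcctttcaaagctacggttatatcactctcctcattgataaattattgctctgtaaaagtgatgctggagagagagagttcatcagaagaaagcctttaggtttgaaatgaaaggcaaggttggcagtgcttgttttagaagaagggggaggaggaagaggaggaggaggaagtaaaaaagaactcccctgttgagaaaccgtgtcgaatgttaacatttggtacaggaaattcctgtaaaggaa
Il12rb2, chr6:67376294-67376438, minus strand: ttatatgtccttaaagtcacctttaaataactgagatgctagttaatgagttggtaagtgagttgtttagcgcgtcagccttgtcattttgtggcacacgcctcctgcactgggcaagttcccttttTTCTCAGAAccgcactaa

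The STAT motif was found in 2 of the 9 windows of these genes. Il18r1 has 3 annotated starts, and the window of the last one, at 40466006, held the motif at 2 places: TTCTGGGAA beginning 219 bases before the start, inside an exon of a longer transcript, and TTCCCAGAA beginning 152 bases before it. The window of Il12rb2 held TTCTCAGAA, beginning 123 bases before the start used for it, at 67376188. The gene, on the minus strand, is annotated out to 67376293, ahead of that start. The site, at 67376303 to 67376311, lies just ahead of this outer end. Of all 32851 promoter windows of the same length, 7.02% held the motif. Neither the T-box motif GGTGTGA, searched on both strands, nor the AP-1 motif TGANTCA was found in any of the 9 windows, and these were in 3.33% and 6.75% of all windows. The letters are a description of the windows, and FPKM per gene does not tell which start was used.

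Of the 7 genes, those of the IL-18 receptor differed most between the genotypes. Il18r1, the ligand-binding chain (chromosome 1, 40465552 to 40500854), was at 16.5 and 22.0 FPKM in the Apoe-/- libraries, against 7.01 and 8.58 FPKM in the WT libraries. Both Apoe-/- values lay above both WT values. The means were 19.3 ± 3.83 FPKM in Apoe-/- and 7.80 ± 1.11 FPKM in WT cells (SD, n = 2 each), a 2.47-fold ratio. The difference of log2(FPKM + 1), Apoe-/- minus WT, was 1.20 ± 0.18 (SE from limma, a linear model fitted over all genes), with 1.13 within replicate number 1 and 1.26 within number 2.

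Il18rap, the signaling chain (chromosome 1, 40515362 to 40551707), was at 8.05 and 9.81 FPKM in the Apoe-/- libraries, against 2.29 and 2.48 FPKM in the WT libraries. Its groups did not overlap either. The means of 8.93 ± 1.25 and 2.39 ± 0.133 FPKM gave a 3.74-fold ratio in favour of Apoe-/- cells. The log2 difference was 1.55 ± 0.14 SE, and 1.46 and 1.63 within numbers 1 and 2. Among genes above 0 in a library, Il18rap stood higher than 49.1% and 53.0% of them in the Apoe-/- libraries and than 35.0% in each WT library, which puts it near the middle of the range in Apoe-/- cells and in the lower part in WT cells.

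The chains of the IL-12 receptor differed less. Il12rb1 (chromosome 8, 70808360 to 70823542) was at 17.4 and 15.9 FPKM in the Apoe-/- libraries, against 12.5 and 9.91 FPKM in the WT libraries. The lower Apoe-/- value was above the higher WT value, with means of 16.7 ± 1.02 FPKM in Apoe-/- and 11.2 ± 1.81 FPKM in WT cells. The log2 difference was 0.54 ± 0.14 SE, and 0.45 and 0.63 within numbers 1 and 2.

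Il12rb2 (chromosome 6, 67285986 to 67376293), the chain that makes the receptor specific for IL-12, was at 1.30 and 1.02 FPKM in the Apoe-/- libraries, against 1.04 and 0.981 FPKM in the WT libraries. It was the lowest of the 7 genes in every library, and its groups overlapped. The log2 difference was 0.10 ± 0.14 SE, and 0.17 and 0.03 within numbers 1 and 2. Its mean of 1.08 FPKM over the 4 libraries was just above the minimum of 1 FPKM set for the tested genes.

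Stat4 (chromosome 1, 51987106 to 52107189) was the highest of the 7, at 86.9 and 98.8 FPKM in the Apoe-/- libraries, against 89.7 and 104 FPKM in the WT libraries. The groups overlapped, and the libraries numbered 1 were the lower ones in both genotypes. The log2 difference was -0.06 ± 0.12 SE, with -0.04 and -0.07 within numbers 1 and 2, and it turned to 0.04 without Apoe-/- replicate 1 and to 0.05 without WT replicate 2.

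The chains of the interferon gamma receptor differed in opposite directions. Ifngr1 (chromosome 10, 19591949 to 19610229) was at 38.8 and 36.9 FPKM in the Apoe-/- libraries, against 30.5 and 33.4 FPKM in the WT libraries. Ifngr2 (chromosome 16, 91547059 to 91564007) was at 9.85 and 10.1 FPKM in the Apoe-/- libraries, against 16.1 and 13.8 FPKM in the WT libraries. Neither gene's groups overlapped: Apoe-/- cells were higher for Ifngr1 and lower for Ifngr2. The log2 difference of Ifngr1 was 0.24 ± 0.10 SE (0.34 and 0.14 within numbers 1 and 2). That of Ifngr2 was -0.53 ± 0.12 SE (-0.65 and -0.41), with means of 9.97 ± 0.165 FPKM in Apoe-/- and 14.9 ± 1.61 FPKM in WT cells.

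**Figure D1:**
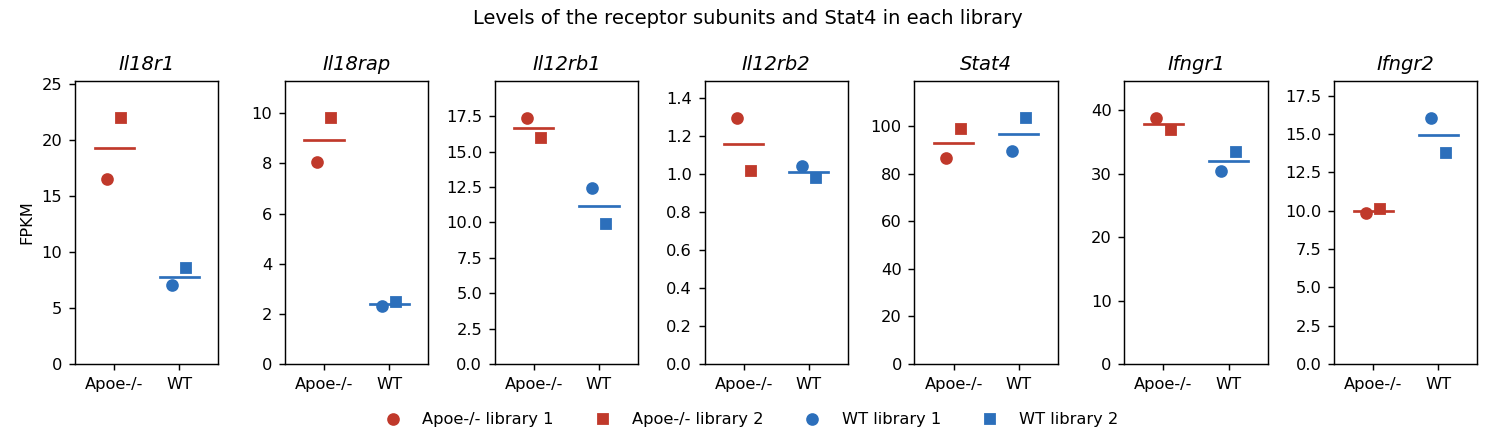
FPKM (vertical axes, each from 0) of the 7 genes in each library, Apoe-/- in red left of WT in blue; replicate 1 is drawn as circles, replicate 2 as squares, and group means as lines. Il18rap has means of 8.93 FPKM in Apoe-/- and 2.39 FPKM in WT cells, whereas the Stat4 and Il12rb2 groups overlap.

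The groups did not overlap for 5 of the 7 genes, where 50.4% of all 11187 tested genes did not. Higher in Apoe-/- cells without overlap were 4 genes (27.5% of all tested genes), and 1 gene was lower (22.9%). In the whole-table fit, Il18r1 and Il18rap were among the genes called higher at an adjusted p under 0.05 (limma, Benjamini-Hochberg over all tested genes), 2 of 7 genes where 0.948% of all tested genes were called higher. None of the 7 was called lower by limma, where 0.885% were; at an unadjusted p under 0.05, 1 of the 7 was lower, as were 925 of all tested genes. Because the genes were chosen on this contrast, nothing is read from these counts. The count of 2 higher became 0 by limma with no filter on low values, 1 with a mean FPKM of 5 or more and 1 without WT replicate 1. The median log2 difference of the 7 genes was 0.24, against 0.00 over all tested genes.

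The order of the levels differed between the genotypes in its middle. In Apoe-/- libraries it ran from Stat4 through Ifngr1, Il18r1, Il12rb1, Ifngr2 and Il18rap to Il12rb2 by mean FPKM. The Apoe-/- values of Il18r1 and Il12rb1 overlapped, and those of Ifngr2 (9.85 and 10.1 FPKM) and Il18rap (8.05 and 9.81 FPKM) lay next to each other. In WT libraries the order was Stat4, Ifngr1, Ifngr2, Il12rb1, Il18r1, Il18rap and Il12rb2, and no neighbours in it overlapped. Il18r1 was thus below Il12rb1 in both WT libraries, and above it in 1 of the 2 Apoe-/- libraries.

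Within a library, the balance of the chains of a receptor is a ratio that a scaling of the whole library cannot change. Il18r1 over Il18rap was 2.06 and 2.24 in the Apoe-/- libraries, against 3.06 and 3.46 in the WT libraries, so the FPKM of the chains stood closer together in Apoe-/- cells. Ifngr1 over Ifngr2 was 3.93 and 3.66 in the Apoe-/- libraries, against 1.90 and 2.43 in the WT libraries. Il12rb1 over Il12rb2 was 13.4 and 15.7 in the Apoe-/- libraries, against 11.9 and 10.1 in the WT libraries. In each case both Apoe-/- ratios lay on the same side of both WT ratios, and since both chains were chosen genes no test was made. How often the ratios of other gene pairs separate in this way was not counted, so nothing is read from it. The low level of Il12rb2 makes its ratio the least precise.

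**Figure D2:**
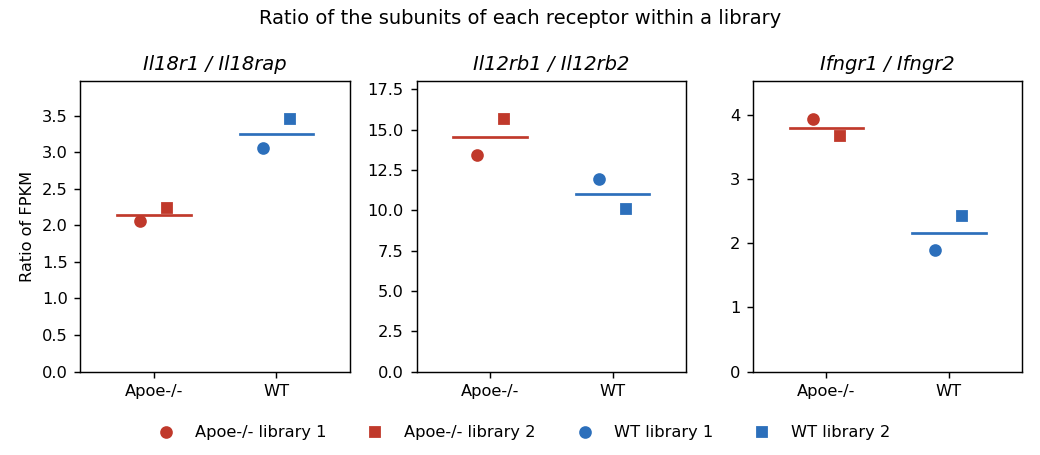
Ratio of the FPKM of the chains of each receptor in each library (vertical axes from 0), Apoe-/- in red left of WT in blue; replicate 1 is drawn as circles, replicate 2 as squares, and group means as lines. Il18r1 over Il18rap is 2.06 and 2.24 in Apoe-/- and 3.06 and 3.46 in WT libraries.

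Il18r1 and Il18rap lie at the end of a cluster of interleukin-1 receptor family genes, 14.5 kb apart. Il1rl1, which encodes the receptor of interleukin-33, ends 133 bases before the first start of Il18r1. It was at 1.02 and 1.18 FPKM in the Apoe-/- libraries, against 0.588 and 0.331 FPKM in the WT libraries, so its groups did not overlap, but with a mean under 1 FPKM it was not tested. Whether reads of the end of Il1rl1 and the start of Il18r1 were kept apart is not known. Farther along, Il1rl2, a receptor of interleukin-36, was at 4.41 and 5.65 FPKM in the Apoe-/- libraries and 3.44 and 5.20 FPKM in the WT libraries, with overlap. Il1r1, the signaling receptor of interleukin-1, was at 2.82 and 2.95 FPKM in Apoe-/- and 2.13 and 2.41 FPKM in WT libraries (adjusted p = 0.353 by limma). Il1r2, the decoy receptor of interleukin-1, was at 51.7 and 51.9 FPKM in Apoe-/- and 64.6 and 64.5 FPKM in WT libraries. Map4k4, a kinase gene beyond it, was at 59.4 and 57.8 FPKM in Apoe-/- and 45.5 and 46.2 FPKM in WT libraries (adjusted p = 0.132 by limma). On the other side, Slc9a4 and Tmem182 were listed at 0 in all 4 libraries and Slc9a2 stayed at 0.0372 FPKM or below. Mfsd9, farther on that side, was at 1.04 and 1.26 FPKM in the Apoe-/- libraries, against 0.605 and 0.598 FPKM in the WT libraries. Its groups did not overlap, and with a mean under 1 FPKM it was not tested. The region thus held genes with higher and with lower means in Apoe-/- cells, and genes near 0; whether neighbours differed from each other was not tested.

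**Figure D3:**
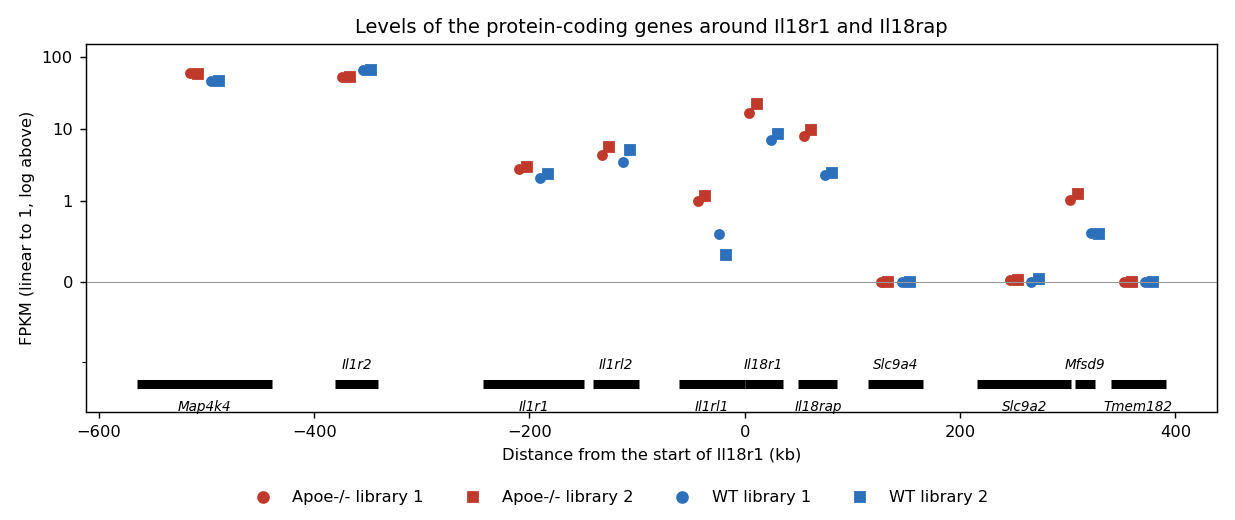
FPKM of the protein-coding genes within 600 kb of Il18r1 (vertical axis linear to 1 and logarithmic above) against distance from the start of Il18r1 in kb; bars mark the genes, red points are Apoe-/- and blue points WT libraries, circles replicate 1 and squares replicate 2. Il18r1 and Il18rap are higher in both Apoe-/- libraries, while Il1r2 is at 51.8 FPKM on average in Apoe-/- and 64.5 FPKM in WT cells.

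Markers of other cells moved between the same libraries. NK and CD8 T cells, which also carry the IL-18 receptor, had a marker list whose summed FPKM was 38.8 and 49.4 in the Apoe-/- libraries, against 30.3 and 30.9 in the WT libraries. Of its 12 genes 9 were tested and 0 passed by limma (lowest adjusted p = 0.0895), while 4 were higher and 0 lower at an unadjusted p under 0.05. Ncr1, which defines NK cells, was at 0.234 and 0.343 FPKM in the Apoe-/- libraries, against 0.115 and 0.0975 FPKM in the WT libraries, too low to be tested. Of the 9 tested genes 8 had a positive difference. Klrd1 averaged 6.28 FPKM in Apoe-/- and 2.33 FPKM in WT cells, and Cd8b1 8.24 and 5.65 FPKM, both without overlap. Gzma went the other way, at 2.24 FPKM on average in Apoe-/- and 2.92 FPKM in WT cells, with overlap. Neutrophil markers summed to 49.4 and 65.9 FPKM in the Apoe-/- libraries, against 8.85 and 6.91 FPKM in the WT libraries. All 4 tested of the 6 listed rose by limma, Elane was listed at 0 in all libraries, and Mpo was at 0 in 3 of them. B cell markers summed to 186 and 178 FPKM in the Apoe-/- libraries, against 304 and 301 FPKM in the WT libraries, and 4 of 7 fell by limma, among them Cd22, Fcer2a and Cr2.

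Dendritic cell markers summed to 19.3 and 21.1 FPKM in the Apoe-/- libraries, against 10.0 and 9.28 FPKM in the WT libraries, and 1 of 5 tested genes, Itgax, rose. Macrophage and monocyte markers summed to 123 and 129 FPKM in the Apoe-/- libraries, against 106 and 101 FPKM in the WT libraries, with 0 of 9 passing by limma (lowest adjusted p = 0.0836; 4 higher at an unadjusted p under 0.05). Regulatory T cell markers, from cells that can also carry the IL-18 receptor, summed to 569 and 630 FPKM in the Apoe-/- libraries, against 635 and 702 FPKM in the WT libraries, with 0 of 6 passing by limma (lowest adjusted p = 0.0714; 1 higher and 1 lower at an unadjusted p under 0.05). Of these 6 genes 3 had a positive difference. Ctla4 was the largest part of the sum, at 302 and 367 FPKM in Apoe-/- and 379 and 441 FPKM in WT libraries. Foxp3, which defines these cells, was at 44.0 and 36.2 FPKM in Apoe-/- and 41.4 and 37.6 FPKM in WT libraries, with overlap. Markers of innate-like T cells had 2 tested members, of which 0 passed by limma and 1 was lower at an unadjusted p under 0.05, and Zbtb16, which defines NKT cells, was at 0.403 FPKM or below in every library. Tfh markers summed to 1727 and 1729 FPKM in the Apoe-/- libraries, against 1706 and 1733 FPKM in the WT libraries, with 0 of 9 passing by limma (2 higher and 1 lower at an unadjusted p under 0.05). These sums hold differences in both directions, and 6 of the 9 genes had a positive one. Pdcd1 was at 203 and 179 FPKM in the Apoe-/- libraries, against 283 and 260 FPKM in the WT libraries. Cxcr5 was at 223 and 204 FPKM in the Apoe-/- libraries, against 176 and 162 FPKM in the WT libraries. In bulk RNA, a change in the number of cells of a type and a change in RNA per cell cannot be told apart, and the part of these other cells in the levels of the receptor genes was not tested. The marker calls depended on single libraries: without WT replicate 1 the adjusted p by limma was 0.118 for Cd22 and 0.0709 for Csf3r, and without WT replicate 2 it was 0.123 for Cd22, 0.121 for Csf3r, 0.0818 for Cr2 and 0.0572 for Itgax. With no filter on low values these 4 genes had adjusted p from 0.0641 to 0.102.

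**Figure D4:**
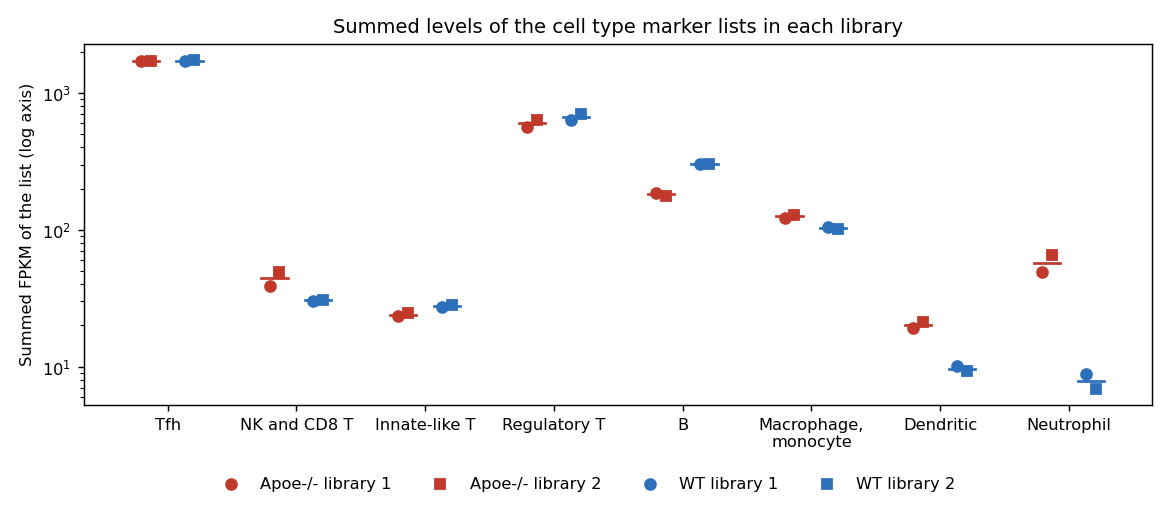
Summed FPKM of 8 marker lists in each library (logarithmic vertical axis), Apoe-/- in red left of WT in blue; replicate 1 is drawn as circles, replicate 2 as squares, and group means as lines. The Tfh sums lie between 1706 and 1733 FPKM, from genes that differed in opposite directions. The neutrophil sums are 49.4 and 65.9 FPKM in Apoe-/- and 8.85 and 6.91 FPKM in WT libraries.

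The genes whose profile over the 4 libraries was nearest to that of a chain were found by the Euclidean distance between log2(FPKM + 1) values centred on each gene's mean. For Il18rap they were Abca1, the cholesterol exporter (distance 0.13), Fcgr4, an Fc receptor of myeloid cells (0.13), Pla2g7, a secreted phospholipase (0.21), Gp49a, a myeloid inhibitory receptor family member (0.23), and Ace, the angiotensin-converting enzyme (0.25). Fcgr4 was at 9.42 and 12.1 FPKM in the Apoe-/- libraries, against 2.56 and 3.17 FPKM in the WT libraries. For Il18r1 they were Rhoc, a small GTPase (0.12), Rfesd (0.17), Sirpb1a, a myeloid receptor (0.17), Mgst1, a glutathione transferase (0.19), and Ifitm3, an interferon-induced membrane protein (0.20). Rfesd was at 15.7 and 17.8 FPKM in the Apoe-/- libraries, against 6.07 and 7.89 FPKM in the WT libraries. The distance between Il18r1 and Il18rap themselves was 0.38, larger than any of these. With 4 libraries in 2 groups, the measure mostly picks genes with a difference of like size. Gp49a and Sirpb1a have near-identical copies, so their values are uncertain.

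The ligands were mostly low. Of 8 listed ligands and soluble inhibitors 4 were tested, and 0 passed by limma (lowest adjusted p = 0.0693; 1 higher at an unadjusted p under 0.05), where 1.83% of all tested genes passed in either direction. Il18 itself was at 8.06 and 10.4 FPKM in the Apoe-/- libraries, against 6.18 and 10.5 FPKM in the WT libraries, with overlap. Il12b, the subunit common to IL-12 and IL-23, was listed at 0 in both Apoe-/- libraries and at 0.0523 and 0.0981 FPKM in the WT libraries, and Il12a was below 1 FPKM in all 4. Ebi3, a subunit of IL-27 and IL-35, was at 10.3 and 10.4 FPKM in the Apoe-/- libraries, against 8.90 and 6.98 FPKM in the WT libraries (adjusted p = 0.254). Ifng was at 127 and 138 FPKM in the Apoe-/- libraries, against 83.7 and 92.6 FPKM in the WT libraries. Its log2 difference of 0.58 ± 0.10 SE had an adjusted p of 0.0693 by limma, short of the threshold, although the groups did not overlap.

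The relay from the IL-18 receptor did not pass at any point: of 20 tested genes between MyD88 and NF-kB, 0 passed by limma (lowest adjusted p = 0.0988; 3 higher and 4 lower at an unadjusted p under 0.05), with a median log2 difference of -0.07. The most abundant were the NF-kB inhibitors Tnfaip3 and Nfkbia. Tnfaip3 averaged 442 ± 23.1 FPKM in Apoe-/- and 572 ± 14.3 FPKM in WT cells (adjusted p = 0.0988), and Nfkbia 419 ± 11.1 FPKM in Apoe-/- and 539 ± 23.0 FPKM in WT cells (adjusted p = 0.10). Nfkb1 averaged 92.0 ± 3.43 FPKM in Apoe-/- and 112 ± 3.30 FPKM in WT cells (adjusted p = 0.187). In each of these 3 genes both Apoe-/- libraries were below both WT libraries.

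Of 9 JAK and STAT genes 0 passed by limma (1 lower at an unadjusted p under 0.05), and their median log2 difference was 0.01. Jak1 averaged 147 ± 14.4 FPKM in Apoe-/- and 169 ± 11.8 FPKM in WT cells, and Jak2 101 ± 15.4 FPKM in Apoe-/- and 123 ± 14.9 FPKM in WT cells. Of 10 genes that restrain JAK-STAT signaling 0 passed by limma (lowest adjusted p = 0.101; 1 higher at an unadjusted p under 0.05). Ptpn6 averaged 134 ± 1.29 FPKM in Apoe-/- and 142 ± 5.19 FPKM in WT cells, and Socs3 103 ± 12.9 FPKM in Apoe-/- and 89.9 ± 13.7 FPKM in WT cells. Among the IL-1 receptor family 0 of 5 tested genes passed by limma (lowest adjusted p = 0.0858; 1 higher and 2 lower at an unadjusted p under 0.05). Sigirr, an inhibitory member, averaged 65.9 ± 1.59 FPKM in Apoe-/- and 45.7 ± 3.66 FPKM in WT cells. A gene that did not pass is not shown to be equal.

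Of 7 tested related cytokine receptors 1 rose. Il10ra, the ligand-binding chain of the IL-10 receptor, averaged 40.4 ± 0.497 FPKM in Apoe-/- and 23.5 ± 1.8 FPKM in WT cells (log2 difference 0.76 ± 0.11 SE, adjusted p = 0.0429 by limma, 0.67 and 0.85 within numbers 1 and 2). The Il10ra call was lost on leaving out WT replicate 1 (adjusted p = 0.0851) or WT replicate 2 (0.175) and with no filter on low values (0.0767), over a range of 0.00261 to 0.175. The other abundant receptors did not pass. Il27ra, the IL-27 receptor chain, was at 108 and 103 FPKM in the Apoe-/- libraries, against 110 and 100 FPKM in the WT libraries. Il6st, the shared gp130 chain, was at 66.9 and 71.7 FPKM in the Apoe-/- libraries, against 68.7 and 72.7 FPKM in the WT libraries.

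Of 17 tested genes of Th1 output, 4 rose and 1 fell in Apoe-/- cells, against 0.948% and 0.885% of all tested genes; several of its genes were known from these data when it was drawn up, so the count is no independent evidence of direction. Ccl5, a chemokine of Th1, CD8 T and NK cells, was at 222 and 208 FPKM in the Apoe-/- libraries, against 110 and 106 FPKM in the WT libraries (log2 difference 0.99 ± 0.09 SE, adjusted p = 0.0148 by limma). Ccl3, a chemokine of activated T and myeloid cells, was at 21.0 and 19.6 FPKM in the Apoe-/- libraries, against 7.99 and 6.34 FPKM in the WT libraries (1.39 ± 0.14 SE, adjusted p = 0.0188; 1.29 and 1.49 within numbers 1 and 2). Nkg7, a cytotoxic granule protein, was at 54.6 and 52.8 FPKM in the Apoe-/- libraries, against 24.1 and 20.3 FPKM in the WT libraries (1.24 ± 0.12 SE, adjusted p = 0.0185). In all of these both Apoe-/- libraries were above both WT libraries, and the NK and CD8 T cell marker sums were higher in the same libraries.

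Cxcr3, the Th1 chemokine receptor, was at 122 and 106 FPKM in the Apoe-/- libraries, against 69.2 and 63.4 FPKM in the WT libraries (0.77 ± 0.11 SE, adjusted p = 0.0442 by limma). The Cxcr3 call was lost in 7 of the 11 alternative settings, among them on leaving out WT replicate 1 (adjusted p = 0.0807) or WT replicate 2 (0.152). Gadd45b, which IL-12 and IL-18 induce in T cells, fell to 154 and 138 FPKM in the Apoe-/- libraries, against 298 and 262 FPKM in the WT libraries (-0.93 ± 0.11 SE, adjusted p = 0.0290; -0.95 within number 1 and -0.92 within number 2). Gadd45b had an adjusted p of 0.0656 without WT replicate 1 and 0.0672 with no filter on low values, where Ccl3 had 0.0605. Tbx21, the Th1 regulator T-bet, was named after its values were seen: it was at 13.8 and 12.1 FPKM in the Apoe-/- libraries, against 13.1 and 11.6 FPKM in the WT libraries, with overlap (adjusted p = 0.811).

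Of 26 tested genes of the interferon gamma response, 0 rose and 1 fell by limma (3 higher and 6 lower at an unadjusted p under 0.05), with a median log2 difference of -0.01. Cxcl10, a chemokine induced by interferon gamma, fell to 45.4 and 45.9 FPKM in the Apoe-/- libraries, against 130 and 129 FPKM in the WT libraries. Its log2 difference was -1.48 ± 0.09 SE (adjusted p = 0.00802 by limma, -1.50 and -1.47 within numbers 1 and 2). Myeloid and B cells also make Cxcl10, and their marker sums differed between the same libraries in opposite directions. The B cell sums were lower in the Apoe-/- libraries, as Cxcl10 was. The neutrophil, dendritic cell and macrophage and monocyte sums were higher. The part of these cells in the level of Cxcl10 was not tested. Irf1, an early interferon gamma target, was at 130 and 133 FPKM in the Apoe-/- libraries, against 173 and 175 FPKM in the WT libraries (adjusted p = 0.0916). Psmb8, an immunoproteasome subunit, averaged 288 ± 21.3 FPKM in Apoe-/- and 253 ± 18.4 FPKM in WT cells (adjusted p = 0.380). Tap1, the peptide transporter, averaged 165 ± 13.1 FPKM in Apoe-/- and 131 ± 12.0 FPKM in WT cells (adjusted p = 0.197).

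**Figure D5:**
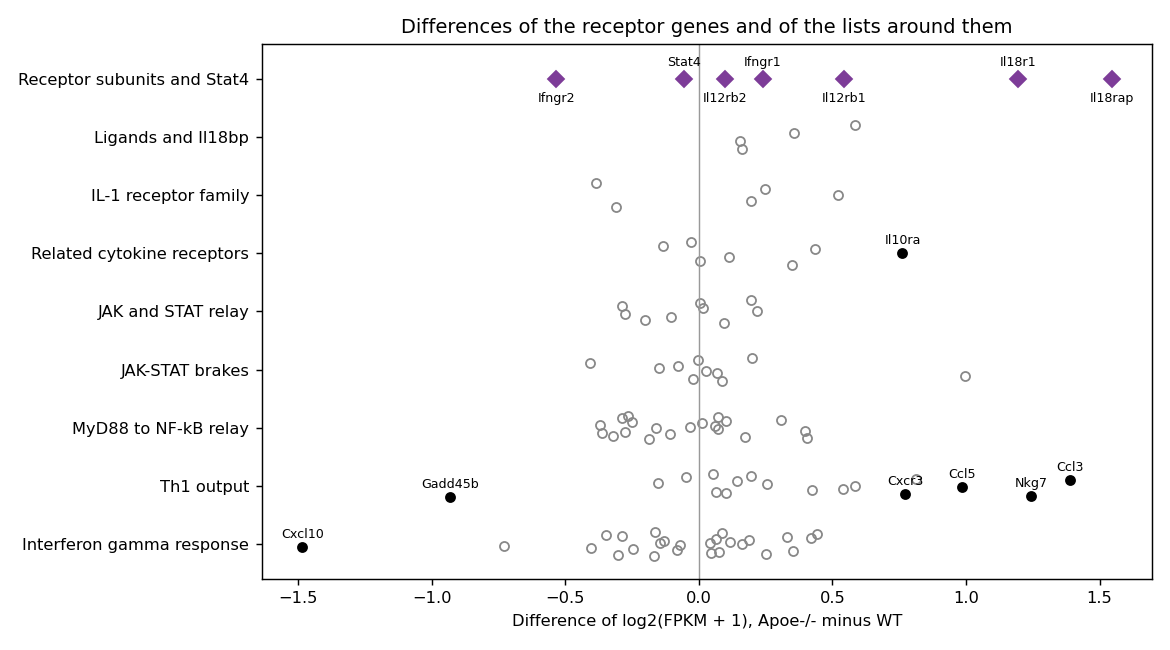
Difference of log2(FPKM + 1), Apoe-/- minus WT (horizontal axis), for the 7 genes (purple diamonds, no test) and for the tested genes of 8 lists around them (circles); filled circles are genes past the adjusted threshold. Il18rap, at 1.55, and Cxcl10, at -1.48, are at the ends of the range.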

How the data were processed

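The deposited table holds FPKM per gene symbol for the 4 libraries, as computed by the authors. Per the submitters' processing notes, the tools were TopHat2 2.0.13, Cuffdiff 2.2.0 and CASAVA 1.8.2, on mm10; the annotation, strand setting and filters were not given in the sources used here. Rows of 2 genes, Bcl6 and Cxcr5, hold a space in place of a tab and were split on white space. FPKM is normalized, so no count model was used. Values were analysed as log2(FPKM + 1), which understates differences of low genes, for 11187 genes whose FPKM averaged at least 1 across libraries, all 7 receptor genes among them. Apoe-/- was compared with WT by limma 3.58.1 in R 4.3.3 (lmFit and trended eBayes; two-sided), p-values were adjusted by Benjamini-Hochberg across every tested gene, and the threshold was 0.05. A permutation test of 2 against 2 libraries cannot go below p = 0.333 and was not run.

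Tested on data simulated for this comparison (11116 genes), limma recovered 55% of 100 genes shifted by 1 log2 unit and 83% of 100 shifted by 2, with 3 false calls among 141. The shifted genes were drawn only from genes above a minimum level that Il12rb2 did not reach. Noise was drawn independently for each library. The rates therefore do not cover genes as low as Il12rb2, or libraries of equal number that vary together. The receptor genes and the lists (168 symbols in 16 lists, all with a row, 1 under an older name) were chosen with earlier results of these data known. From each list the genes past the threshold are named, otherwise the 3 with the highest mean FPKM; others named are given as values. The 5 nearest profiles are named for Il18r1 and Il18rap. Positions, promoter windows and exons come from RefSeq GRCm38.p6 and GENCODE M21, the same assembly as mm10. The 11 alternative settings covered the pseudocount, the filter, library scaling, the trend, the replicate number as a block and leaving out each library.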

Additional observations from a re-analysis of the deposited data

How the results depend on the processing

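Over the 11 alternative settings the log2 differences ranged from 1.00 to 1.39 for Il18r1, 1.42 to 1.85 for Il18rap, 0.39 to 0.69 for Il12rb1, 0.0033 to 0.19 for Il12rb2, -0.16 to 0.05 for Stat4, 0.17 to 0.30 for Ifngr1 and -0.64 to -0.43 for Ifngr2. Of the 7 genes, 2 were called higher and 0 lower by limma; with no filter on low values 0 were higher (35 higher and 41 lower over the whole table, at more genes tested), and with a mean FPKM of 5 or more 1 was (51 higher over the whole table, at fewer genes tested). Leaving out each library in turn gave 1 to 2 of the 7 higher, and 54 to 317 genes higher and 61 to 301 lower over the whole table, against 106 and 99 with all 4; the lone library was then assumed to vary like the other group. With a replicate block (the number as a covariate, though no label ties equal numbers together) 4 of the 7 genes were called higher and 1 lower, and 1908 genes were higher and 1776 lower over the whole table. Deviations of the libraries numbered 1 from their group means correlated at 0.214 across genes, a hint from the data and not from the design. Differences near 0 changed sign: leaving out each library in turn gave -0.179 to 0.499 for Il18, -0.0474 to 0.435 for Il1rl2, -0.0600 to 0.0690 for Il27ra and -0.0774 to 0.0217 for Il6st. Rescaling the libraries to one FPKM total gave -0.0432 for Il27ra and -0.0194 for Ptpn11, and rescaling by the median ratio -0.0200 for Il27ra. The cause of these shifts was not tested. Depth is unknown, so no counting interval could be given; Il12rb2, Il1rl1 and the low ligands are the values it limits most.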
